A study of Saccharomyces cerevisiae with 48 samples.

Results

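The 14 MATa yeast segregants with the highest and the 14 with the lowest mating score after alpha factor were compared, out of 43 treated segregants on 48 arrays. The score was the mean level of FUS1, FUS2, FIG1, FIG2, AGA1, PRM1, PRM2, PRM3, PRM6 and KAR4, where a level is the log2 intensity of a gene minus the log2 of the 75th percentile of its array. The 2 groups, called high-score and low-score segregants below, were therefore chosen by the measured levels of those 10 genes, which are described here and not tested. A working label for the contrast was a strong against a weak mating program, and the data went against the word weak: the lowest of the 43 treated segregants still scored 4.40 above the highest untreated array.

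All segregants came from the cross that the labels name YJM789 X S96, and each is a different haploid MATa strain on 1 array, so a group is a set of strains and not repeats of 1 strain. Cultures were grown in rich medium and shaken for 30 min at 30 °C with 5 µM alpha factor. The MATa parental lines S96 and HS959 were measured both treated and untreated, and SEG8, which ranked 24 of 43 and so lies between the groups, was the only segregant also measured untreated. The labels give S96 and HS959 the same cross name as the segregants and no further genotype.

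Budding yeast mate when a haploid cell senses the pheromone of the opposite mating type. In MATa cells alpha factor binds the receptor Ste2, which frees the G protein subunits Ste4 and Ste18 from Gpa1, and a scaffolded kinase cascade (Ste11, Ste7, Fus3) then relieves the transcription factor Ste12 of its inhibitors Dig1 and Dig2. Ste12 switches on genes for agglutination, for cell and nuclear fusion, for arrest in G1 and for desensitisation. The score genes are among the most strongly switched on of these.

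Arrays held 6256 genes, with 94.0% to 99.9% of gene spots well above background. The lowest share was that of SEG14, a high-score segregant, and SEG42, a low-score segregant, stood apart by its chromosome XII genes, whose median level lay 0.80 above their medians over the 43 segregants. The same shift was 0.79 in SEG9, which lay between the groups, and at most 0.06 in the other segregants. The high-score arrays lay on slides 1 to 6 as 2, 3, 5, 1, 1 and 2, against 0, 1, 0, 3, 6 and 4 low-score arrays, so slides 1 and 3 held no low-score array. A slide effect passed an adjusted p of 0.05 for 47.6% of genes over the 43 treated arrays, and results are therefore given with slide as a block too. The low-score arrays were brighter: the log2 of the 75th percentile averaged 14.86 ± 0.18 in high-score and 15.18 ± 0.20 in low-score arrays (SD, n = 14 each). The score subtracts this percentile, so the measure took part in choosing the groups and is given without a test. Since each array was 1 strain, p-values measure the spread between these arrays.

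The scores of the 43 treated segregants spanned 1.92 to 2.50, a range of 0.58 on the log2 scale. The high-score segregants had a lowest score of 2.26, a median of 2.34 and a highest of 2.50, and the low-score segregants had 1.92, 2.10 and 2.16. The groups differed by 0.28 in their mean score, a 1.22-fold difference that equals 5.00% of the log2 induction seen in SEG8. At the upper boundary SEG6 was the last segregant inside at 2.26 and SEG25 the first outside at 2.25. At the lower boundary SEG11 was the first inside at 2.16 and SEG36 the last outside at 2.17. The scores thus ran on without a gap at either boundary.

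**Figure D1:**
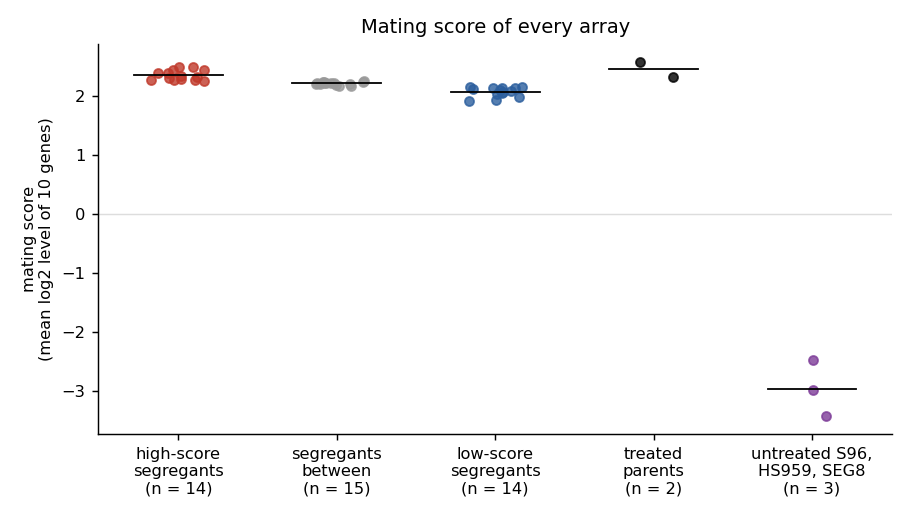
Mating score (mean log2 level of the 10 score genes) of every array, with a point per array and a line at each group's mean. The 43 treated segregants sit between 1.92 and 2.50 and both treated parents near them, whereas the 3 untreated arrays sit at -2.49 or lower.

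Treated S96 scored 2.59, above all 43 segregants, and treated HS959 scored 2.34. These scores are not corrected for the level of bright genes (below). Untreated S96 scored -2.99, untreated HS959 -2.49 and untreated SEG8 -3.44. The score was thus 5.58 higher with alpha factor in S96, 4.82 higher in HS959 and 5.65 higher in SEG8. Both groups of segregants were on the treated side of this interval, and every score gene was well above background in all 430 pairs of gene and treated segregant.

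The score genes act at successive steps of mating. Agglutination and contact come first. AGA1, which anchors the agglutinin that sticks MATa cells to their partner, had levels of 2.66, 2.82 and 3.24 (lowest, median and highest) in high-score segregants against 2.25, 2.55 and 2.73 in low-score ones. FIG2, a cell wall adhesin of mating cells, had 2.73, 2.94 and 3.47 in high-score segregants against 2.37, 2.59 and 2.68 in low-score ones. FIG2 was the one score gene in which all 14 high-score segregants lay above all 14 low-score segregants, while AGA1 overlapped by a few arrays. FIG1, a membrane protein needed for calcium entry during mating, had 2.57, 2.81 and 3.16 in high-score segregants against 2.30, 2.45 and 2.58 in low-score ones, with 13 high-score segregants above every low-score one.

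Cell fusion genes differed less with the scaling of the score. With quantile normalization (explained below) the differences were 0.103 for FUS1, 0.035 for FUS2 and 0.015 for PRM1. Those of AGA1, FIG1 and FIG2 were then 0.006, 0.019 and 0.020, so the order did not hold. FUS1, a membrane protein at the mating projection tip, had levels of 1.78, 1.89 and 2.10 in high-score segregants against 1.31, 1.72 and 1.94 in low-score ones. FUS2, a cytoplasmic protein of the cell fusion zone, had 1.91, 2.12 and 2.35 in high-score segregants against 1.82, 1.96 and 2.11 in low-score ones. PRM1, which acts in plasma membrane fusion, had 1.93, 2.16 and 2.43 in high-score segregants against 1.88, 2.01 and 2.26 in low-score ones. In each of these 3 genes at most 8 of the 14 high-score segregants lay above every low-score one.

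Of the remaining score genes, 1 showed the smallest difference and others the widest spread. PRM2, a pheromone-regulated membrane protein, had levels of 1.82, 2.00 and 2.18 in high-score segregants against 1.77, 1.87 and 2.19 in low-score ones, so no high-score segregant lay above every low-score one. PRM3, a nuclear envelope protein needed for nuclear fusion, had 1.91, 2.20 and 2.78 in high-score segregants against 1.33, 1.75 and 2.20 in low-score ones. PRM6, a membrane protein linked to potassium transport, had 1.53, 1.69 and 2.08 in high-score segregants against 0.88, 1.54 and 1.73 in low-score ones. The low values of both came mostly from slide 5, which held 6 low-score segregants and 1 high-score segregant. On that slide the low-score segregants had a lowest, median and highest level of 1.33, 1.57 and 1.72 for PRM3 and 0.88, 1.14 and 1.57 for PRM6, and SEG40, its only high-score segregant, had 2.13 and 1.53. On slide 6, where 2 high-score and 4 low-score segregants lay, PRM6 overlapped, at 1.62 and 1.69 in high-score segregants against 1.46 to 1.71 in low-score ones. KAR4, a transcription factor that works with Ste12 on nuclear fusion genes, had 2.51, 2.71 and 2.86 in high-score segregants against 1.93, 2.46 and 2.56 in low-score ones.

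**Figure D2:**
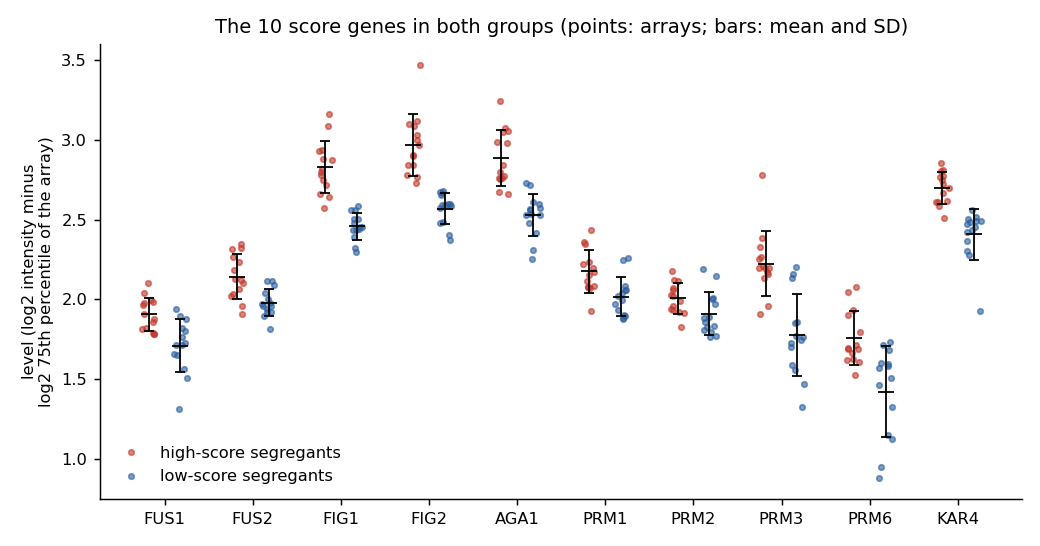
Levels (log2 intensity minus the log2 75th percentile of the array) of the 10 score genes, with high-score segregants left of low-score segregants, a point per array, and bars for mean and SD (n = 14 each). FIG2 is the only gene without overlap, and PRM3 and PRM6 show the widest spread among low-score segregants.

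Differences of the group means ran between 0.10 for PRM2 and 0.45 for PRM3, all positive, as the choice of groups by these genes makes likely. They depended on the scaling. Quantile normalization, which gives all arrays 1 common distribution of values, left a difference of 0.07 in the mean score. Under it the difference was 0.33 for PRM3, 0.25 for PRM6 and 0.10 for FUS1, and between -0.02 and 0.04 for the other 7 score genes. All 10 score genes belonged to the brightest 10% of genes on the array by their mean over the 43 treated segregants, whose levels differed between the groups as a whole (below). With slide as a block the quantile-normalized differences were 0.18 for PRM3 and 0.11 for PRM6, and on slide 5 alone they were 0.53 and 0.29. On slide 4 they were 0.17 and 0.28, and on slide 6 0.12 and -0.08. PRM3 and PRM6 had means of 2.22 ± 0.20 and 1.76 ± 0.17 in high-score segregants against 1.77 ± 0.26 and 1.42 ± 0.29 in low-score ones (SD, n = 14 each, 75th percentile scaling).

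The comparison of all other genes asked what else differed between the groups. Each tested level subtracts the same percentile of its array as the score does, and all score genes were among the brightest 10%. The grouping and the levels of bright genes were thus tied before any test. For bright genes the limma p-values and overlap counts given below are therefore descriptions. They cannot show a difference apart from the scaling. Of 6221 genes tested outside the score with limma, 259 passed a Benjamini-Hochberg adjusted p of 0.05 (4.16% of those tested), 247 of them higher in high-score segregants (3.97%) and 12 lower (0.193%). The higher genes were mostly ribosomal protein and glycolytic genes, and 238 of the 247 belonged to the brightest 10%. Their differences ran between 0.17 and 1.22 on the log2 scale with a median of 0.38, while the median over all tested genes was 0.03. With slide as a block, 175 genes were higher (2.81%) and 1 lower (0.0161%), and 174 of the 175 were among the 247. With quantile normalization none passed by limma, although 704 had an unadjusted p under 0.05, and the smallest adjusted p was 0.261.

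**Figure D3:**
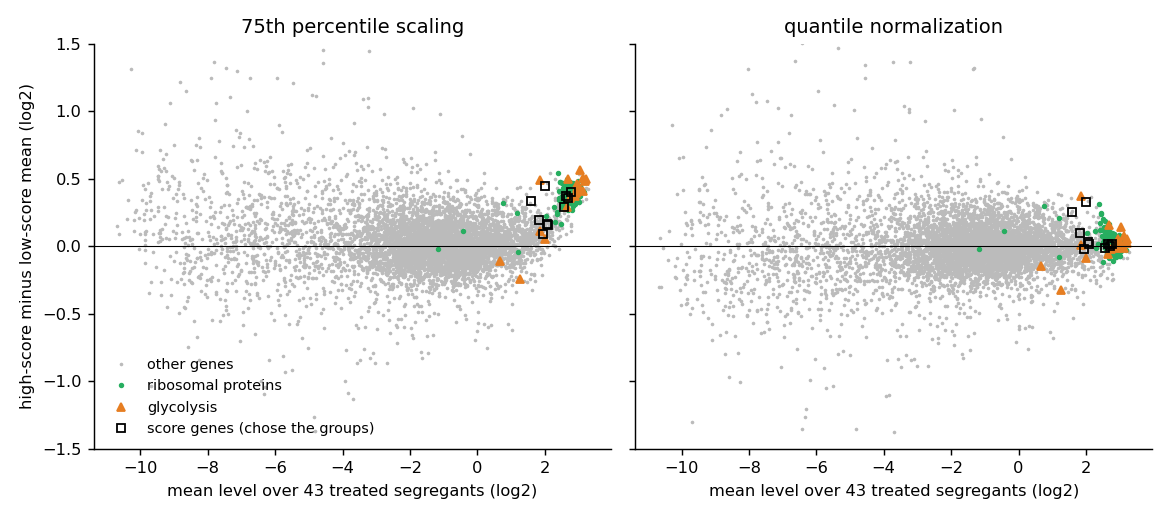
Difference of the group means (high-score minus low-score, log2) of each gene against its mean level over 43 treated segregants, with 75th percentile scaling on the left and quantile normalization on the right; 31 and 26 genes lie outside the drawn range. On the left ribosomal protein genes (green) and glycolytic genes (orange) lie with the score genes on an upward tail at the bright end, which is flat on the right.

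Ribosomal protein genes formed the largest group. Of 138 tested, 131 were higher in high-score segregants (94.9%) and none lower. Among all tested genes 3.97% were higher, and 38.6% of the brightest 10%, to which 133 of the 138 belonged. The median difference of the 138 was 0.39, and 0.32 with slide as a block. It was 0.03 with quantile normalization, where 97 of the 138 differences were positive. RPS12, a protein of the small subunit, had levels of 2.92, 3.19 and 3.64 in high-score segregants against 2.49, 2.76 and 3.05 in low-score ones, a difference of 0.48 ± 0.07 (SE; limma adjusted p = 3.17e-05). Of the high-score segregants, 13 lay above every low-score one. RPS12 is a bright gene, so this p-value and this count share the scaling of the score and are descriptive. RPS20, RPS15, RPL41A and RPL41B were also among the 12 largest differences that passed both without and with the slide block, at 0.48 to 0.55. RPL41A and RPL41B are near-identical copies, so their probes may read each other's transcripts. The 67 mitochondrial ribosomal protein genes had none higher or lower by limma, 3 at an unadjusted p under 0.05, and a median difference of -0.004. They were dimmer, with a median level of -0.48 against 2.73 for the cytosolic ribosomal proteins.

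Genes of glycolysis and fermentation showed the same order of difference. Of 19 tested, 15 were higher (78.9%) and none lower. The share was 3.97% of all tested genes and 38.6% of the brightest 10%, to which 18 of the 19 belonged. Their median was 0.41, which was 0.28 with slide as a block and 0.02 with quantile normalization, and -0.01 with quantile normalization and slide together. ENO2, an enolase, had levels of 2.85, 3.30 and 4.004 in high-score segregants against 2.40, 2.77 and 3.19 in low-score ones, and its difference of 0.57 ± 0.09 (SE; limma adjusted p = 6.33e-05) was the largest that passed both fits. PGK1 (phosphoglycerate kinase), GPM1 (phosphoglycerate mutase), PDC1 (pyruvate decarboxylase) and TDH3 (glyceraldehyde-3-phosphate dehydrogenase) differed by 0.51, 0.50, 0.50 and 0.49. In these 4 genes between 8 and 13 of the 14 high-score segregants lay above every low-score one. TEF1 and TEF2, copies of the gene for translation elongation factor 1 alpha, differed by 0.54 and 0.48, and with quantile normalization these fell to 0.13 for TEF1 and 0.01 for TEF2. ENO2, TDH3, TEF1 and TEF2 have close copies in the genome, and their probes may read both.

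Within single slides that held both groups, ribosomal protein genes had a median difference of 0.16 on slide 2, 0.61 on slide 4, 0.27 on slide 5 and 0.28 on slide 6. Glycolytic genes had 0.03, 0.64, 0.22 and 0.25 on the same slides. Slides 2, 4 and 5 each held 1 array of one of the groups, so these are values of few strains and were not tested.

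The brightest 10% of genes as a whole was higher. Of its 616 tested genes 238 were higher (38.6%) and none lower, and outside ribosomal proteins 107 of 483 were higher (22.2%). Among the other 5605 genes, 9 were higher and 12 lower. Groups that did not overlap were found for 47 genes (0.756% of those tested), all higher in high-score segregants, all in the brightest 10%, and 40 of them ribosomal protein genes. The levels of these genes share the percentile that entered the score, so this count is a description of the chosen groups. By 10 equal classes of mean level, the median difference was 0.16 in the brightest class and between -0.01 and 0.10 in the other 9. With quantile normalization it lay between -0.05 and 0.01 in all 10, which 1 common distribution of values makes likely in advance.

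Array brightness moved with these results. The mean level of the 592 genes of the brightest 10% outside the pheromone lists was 2.05, 2.11 and 2.38 (lowest, median and highest) in high-score segregants against 1.84, 1.97 and 2.06 in low-score ones, a difference of 0.19. Before scaling, the same genes had a mean log2 intensity of 17.01 ± 0.12 in high-score against 17.15 ± 0.16 in low-score arrays (SD, n = 14 each), so they were dimmer by 0.14 in high-score arrays, while the 75th percentile was dimmer by 0.32. The score minus this mean level differed by 0.10 between the groups. In the treated parents the same mean level was 2.40 in S96 and 2.09 in HS959, so the higher score of S96 came with higher bright genes. The SD between duplicate spots was 0.058 ± 0.027 in high-score and 0.038 ± 0.010 in low-score arrays (n = 14 each), and this followed the slide in part. High-score arrays had 0.094 to 0.105 on slide 1 and 0.040 to 0.088 on slide 3, where no low-score array lay, and on slide 2 they had 0.030 to 0.032 against 0.035 in the low-score array. On slide 4 the 1 high-score array had 0.075 against 0.032 to 0.044 in the low-score arrays. On slide 5 the values were 0.034 against 0.029 to 0.044, and on slide 6 0.034 to 0.045 against 0.030 to 0.069. The part of array brightness in the higher levels of ribosomal, glycolytic and score genes was not tested beyond the scalings given.

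**Figure D4:**
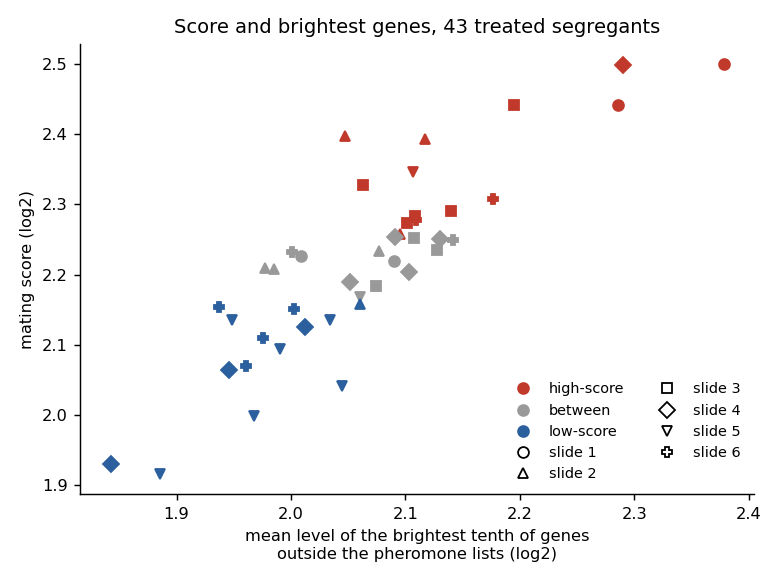
Mating score (log2) against the mean level of the brightest 10% of genes outside the pheromone lists (log2) for 43 treated segregants, coloured by group with a marker per slide. High-score segregants lie at 2.05 or above on the horizontal axis and low-score segregants at 2.06 or below.

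Over the 43 treated segregants the score correlated with that mean level at Pearson's r = 0.86 and Spearman's rho = 0.84. These are given as a description with no test, because both measures subtract the same 75th percentile and the score genes themselves lie among the brightest 10%. Without the 2 segregants farthest from the median level, SEG3 and SEG32, r was 0.82. Within slides, r was 0.46 on slide 2 (n = 7), and over 8 segregants each it was 0.66 on slide 3, 0.99 on slide 4 and 0.86 on slide 6. On slide 5 it was 0.81 but 0.30 without its 2 farthest segregants, so the relation there rested on those. Slide 1 held too few treated segregants for a value.

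Genes specific to MATa cells came next. All 7 lay in the brightest 10% of genes, where 38.6% were higher and 526 of 616 had positive differences. Their p-values and overlaps are therefore descriptive, as for the other bright genes. All 7 had positive differences and 5 of 7 were higher, 2 of them also with slide as a block: MFA1 and MFA2, which encode a-factor; AGA2, the binding subunit of the agglutinin; ASG7, an a-specific regulator of signalling; and STE2, the receptor. STE2 had levels of 2.32, 2.44 and 2.90 in high-score segregants against 1.99, 2.14 and 2.39 in low-score ones, a difference of 0.34 ± 0.06 (SE; limma adjusted p = 0.000139; 0.00797 with slide as a block). ASG7 had 2.86, 3.03 and 3.47 in high-score segregants against 2.43, 2.73 and 2.83 in low-score ones, without overlap, a difference of 0.39 ± 0.06 (SE; limma adjusted p = 5.3e-05; 0.0166 with slide as a block). With quantile normalization these differences were 0.14 for STE2 and 0.01 for ASG7.

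MFA1, MFA2 and AGA2 differed by 0.50, 0.43 and 0.42, but did not pass with slide as a block (limma adjusted p = 0.805, 0.548 and 0.0514). MFA1 had levels of 2.14, 2.51 and 3.14 in high-score segregants against 0.77, 2.09 and 2.41 in low-score ones. MFA2 had 2.29, 2.53 and 2.84 in high-score segregants against 0.84, 2.24 and 2.58 in low-score ones. The lowest value of both a-factor genes was that of SEG41, with the next low-score segregant at 1.92 for MFA1 and 1.85 for MFA2. Without SEG41 the differences were 0.40 and 0.34 and both genes still passed (limma adjusted p = 0.00162 and 0.002). The protease gene BAR1, which degrades alpha factor, differed by 0.19 (adjusted p = 0.117), and STE6, the exporter of a-factor, by 0.09 (adjusted p = 0.564).

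Markers of MATalpha cells and of the mating-type cassettes were looked at as signs of other cells. None of the 5 alpha-specific genes passed by limma, none had an unadjusted p under 0.05, and their level per array, given as a mean over the list, had -4.46, -2.52 and -1.21 in high-score segregants against -4.22, -2.64 and -1.58 in low-score ones. STE3, the receptor of a-factor, had a median level of -4.16 in high-score and -4.78 in low-score segregants, with ranges that overlapped widely. STE3, MF(ALPHA)1 and MF(ALPHA)2 differed by 0.37, 0.29 and 0.47, but SAG1 and AFB1 by -0.10 and -0.20. With alpha factor MF(ALPHA)2 was 5.74 higher in S96 and 4.01 higher in HS959, and SAG1 1.06 and 2.61 higher. AFB1 changed by -0.38 and 0.25. In treated cultures such levels therefore cannot be read as signs of other cells alone. None of the 7 cassette genes passed either, with 3 at an unadjusted p under 0.05, against 14.2% of all tested genes. HMRA1 had the largest difference among them at 0.47 (limma adjusted p = 0.259), and it was 0.11 with slide as a block. Probes of the cassettes may read each other's transcripts, so the 3 may not be separate. None of 15 meiosis genes passed by limma, with 1 at an unadjusted p under 0.05.

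Pheromone-induced genes outside the score were mostly not called. Of 42 tested, 7 were higher (16.7%, against 3.97% of all tested genes and 38.6% of the brightest 10%, to which 23 of the 42 belonged) and none lower, and 30 had positive differences. Besides MFA1, MFA2, AGA2, ASG7 and STE2, these were SCW10, a cell wall glucanase-like protein, and PRM4, a pheromone-regulated protein. SCW10 had levels of 2.75, 2.87 and 3.39 in high-score segregants against 2.26, 2.57 and 2.74 in low-score ones, without overlap, a difference of 0.40 ± 0.07 (SE; limma adjusted p = 0.000178; 0.0199 with slide as a block). PRM4 had 1.92, 2.24 and 2.36 in high-score segregants against 1.77, 1.99 and 2.13 in low-score ones, a difference of 0.24 ± 0.05 (SE; limma adjusted p = 0.00371; 0.00824 with slide as a block). With quantile normalization they differed by 0.03 and 0.11. The list's median difference was 0.13, against 0.03 over all tested genes, and 0.04 with quantile normalization.

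Other listed genes did not pass. The list was drawn from what is known of the pathway, and 18 of its 42 genes were at least 1 higher with alpha factor in both parents while 5 (PRM7, SVS1, ECM18, BIK1 and RAX2) were lower in both. FAR1, which arrests the cell cycle in G1, had a median of 1.88 in high-score and 1.80 in low-score segregants, a difference of 0.05 (adjusted p = 0.659). KAR3 and CIK1, the motor and its partner in nuclear fusion, differed by 0.09 and 0.12 (adjusted p = 0.637 and 0.478). PRM5 and CHS1, a chitin synthase, differed by 0.20 and 0.15 (adjusted p = 0.112 and 0.0885). PGU1, a secreted pectinase, varied most among them without being a marker of either parent, with levels of -3.05, -1.33 and 1.23 in high-score segregants against -5.30, -2.55 and -0.81 in low-score ones (difference 1.03, adjusted p = 0.306). PRM8 and PRM9 are members of the DUP240 family. With alpha factor PRM8 was 4.14 higher in S96. In HS959 it lay near background, at -10.26 untreated and -11.18 treated. PRM9 changed by -0.41 in S96, and in HS959 it lay at -14.39 untreated and -13.18 treated. The lowest HS959 signals well above background were -12.15 untreated and -11.53 treated. Both genes ranged over more than the whole induction of the score in both groups, and their differences of -1.56 and 4.13 did not pass (adjusted p = 0.783 and 0.113).

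The signalling pathway itself showed 1 called gene, STE2, among 28 tested (3.57%, near the 3.97% of all tested genes), with a median difference of 0.09. Along the cascade, STE4 (G protein beta subunit) differed by 0.06, STE18 (gamma subunit) by 0.21 and GPA1 (alpha subunit) by -0.01, none past the threshold (adjusted p = 0.698, 0.413 and 0.983). The kinases STE20, STE11, STE7, FUS3 and KSS1 differed by 0.16, 0.07, 0.13, 0.16 and 0.12, with adjusted p between 0.255 for FUS3 and 0.789 for STE11. The scaffold gene STE5 differed by -0.07 (adjusted p = 0.778).

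The gene of that transcription factor, STE12, had levels of 0.37, 0.72 and 0.91 in high-score segregants against 0.37, 0.77 and 1.21 in low-score ones, a difference of -0.10 ± 0.07 (SE; limma adjusted p = 0.527). Its inhibitors DIG1 and DIG2 differed by -0.09 and 0.30 (adjusted p = 0.633 and 0.498). SST2, which dampens G protein signalling, differed by 0.20 (adjusted p = 0.27), and MSG5, a phosphatase acting on Fus3, by -0.02 (adjusted p = 0.919). The groups overlapped in every one of these genes. CDC42, a GTPase of polarity, had the smallest adjusted p after STE2, at 0.113, with a difference of 0.15.

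Other gene lists gave few calls. Of 23 heat shock genes 4 were higher (17.4%), and 13 of the 23 lay in the brightest 10%, where 38.6% were higher. The 4 were SSA2, CPR6, HSC82 and SSE1, all chaperones or their partners, with differences of 0.40, 0.38, 0.32 and 0.23, of which SSA2 passed with slide as a block (adjusted p = 0.0389). Single genes were higher in other lists: RHO1, a GTPase of cell wall signalling, by 0.47; HOR7, a stress-responsive gene, by 0.33; CIS3 and BGL2, cell wall proteins, by 0.23 and 0.22; and ATP1, a subunit of the ATP synthase, by 0.22. None of these 5 passed with slide as a block (limma adjusted p between 0.0703 and 0.419). With quantile normalization HSC82, HOR7, CIS3 and BGL2 turned to lower values. Of 32 general stress genes 26 had negative differences, with a median of -0.19, and HOR7 was the only one called (3.13%, against 3.97% of all tested genes). Of all 6221 tested genes 3523 had positive differences. The list's median was -0.39, -0.30 and -0.34 on slides 2, 5 and 6 but 0.30 on slide 4. It was 0.03 with score and levels both by quantile normalization, so its sign was not stable.

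No gene passed by limma in either direction in several lists of the cell cycle, growth and nutrient state. Over all tested genes 882 of 6221 (14.2%) had an unadjusted p under 0.05. Such genes numbered 4 of 45 in G1/S, 2 of 23 in G2/M and 1 of 8 among core histones. They numbered 2 of 50 in ribosome biogenesis, 2 of 18 in the phosphate list, 2 of 22 in the iron list, 0 of 25 in ergosterol synthesis and 3 of 13 in nuclear fusion outside the score. The 8 genes of the mitochondrial genome had 3 at an unadjusted p under 0.05, none past the threshold, and a median difference of 0.44 that was -0.12 with slide as a block. The 15 daughter-cell genes had none called by limma, 1 at an unadjusted p under 0.05 and a median of -0.32. That median was -0.24 with slide as a block. On slides 2, 4, 5 and 6 it was -0.01, 0.25, -1.13 and 0.08, so its sign differed between slides and its size was largest on slide 5. DSE1, the daughter-specific gene that differs between the parents, had levels of -7.75, -1.68 and 2.11 in high-score segregants against -7.79, 1.49 and 1.93 in low-score ones. It ranged widely in both groups, and AMN1, a regulator of daughter-cell genes, differed by 0.06 (adjusted p = 0.872). The 10 DUP240 genes had a median difference of 1.87 without any call by limma, with 4 at an unadjusted p under 0.05. Among the 10 are UIP3 and PRM9, neighbours on chromosome I that are inherited together (below). The list's median was -0.50, 4.59, 0.99 and 6.98 on slides 2, 4, 5 and 6. It was 0.47 with arrays ranked within slides and -0.79 with score and levels both by quantile normalization, so it was not stable.

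**Figure D5:**
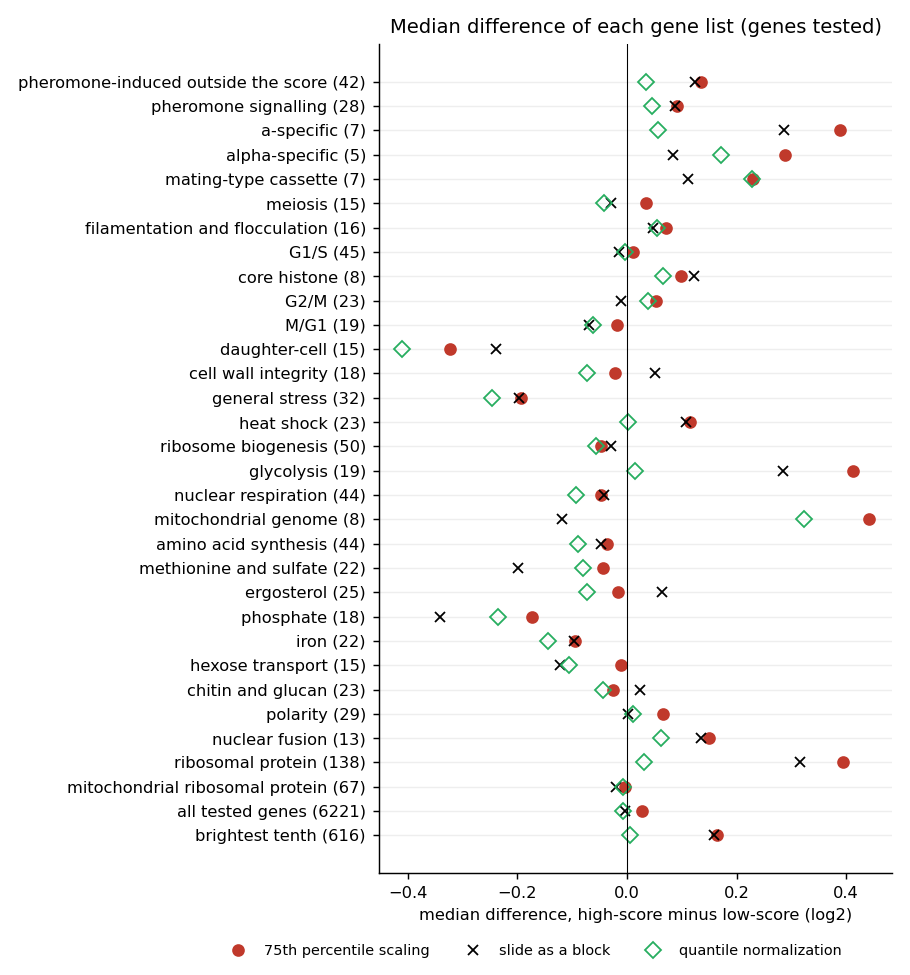
Median difference (high-score minus low-score, log2) of each gene list except DUP240, with the number of genes tested in brackets. Circles show 75th percentile scaling, crosses slide as a block and diamonds quantile normalization. DUP240 is not drawn, and its medians in that order were 1.87, 2.54 and 1.68. Ribosomal protein, glycolysis and a-specific genes lie at 0.39 to 0.41 as circles and at 0.02 to 0.06 as diamonds.

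The 12 lower genes were spread over different functions, and none of them passed with slide as a block. Without SEG14 the count of lower genes was 7. By the smallest p these were LYS1 and VPS15, with YBR103C-A, YOR376W and HEF3. LYS1, the last enzyme of lysine synthesis, had levels of -1.29, -0.86 and -0.47 in high-score segregants against -1.0001, -0.46 and 0.16 in low-score ones, a difference of -0.44 ± 0.10 (SE; limma adjusted p = 0.00674; 0.566 with slide as a block). LYS20, the first enzyme of that pathway, differed by -0.62 (adjusted p = 0.0397). These were the only 2 of 44 amino acid synthesis genes called, while 0.193% of all tested genes were lower. In that list 17 of 44 had an unadjusted p under 0.05 by limma in either direction, against 14.2% of all tested genes. Its median difference was -0.04, and none of its genes was called with slide as a block. HEF3, a paralog of translation elongation factor 3, differed by -0.46, and VPS15, a kinase of vacuolar sorting, by -0.26. YOR376W and YBR103C-A were near background, well above it in 9 and 12 of 14 high-score arrays and in 14 of 14 low-score arrays. For LYS1, VPS15 and HEF3 quantile normalization left nearly the same differences, -0.44, -0.27 and -0.53, but no call (smallest adjusted p 0.261).

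The parents' response to alpha factor was measured on arrays that are in neither group, and genes were also sorted by it. The 4 parental arrays lay on slide 1 with 2 high-score arrays and no low-score array. Induced here means at least 1 higher on the log2 scale with alpha factor in both parents, and repressed at least 1 lower in both. Of 145 induced genes outside the score 7 were higher in high-score segregants (4.83%) and none lower, with a median difference of 0.19, and 113 were positive. Of 171 repressed genes none was higher and 1 lower, with a median of -0.02, and 78 were positive. Of the other 5905 genes 240 were higher (4.06%) with a median of 0.03.

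The sign of the induced class held with quantile normalization, with 110 of 145 positive and a median of 0.11, and for repressed genes the median was -0.09 with 59 of 171 positive. Among the other 5905 genes 47.7% were positive. With slide as a block the medians were 0.14 for induced, -0.10 for repressed and -0.005 for other genes. Since the groups were chosen by 10 induced genes, these are descriptions of the classes and no test was run. The 247 higher genes were themselves little changed by alpha factor, with a median response of 0.25 in S96 and -0.08 in HS959.

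Genes with very different signals in the parents show which parent a segregant resembles there. At 71 such marker genes, on 15 nuclear chromosomes and the mitochondrial genome, at least 3 apart between S96 and HS959 both with and without alpha factor, none differed in parental signal between the groups by Fisher's exact test after adjustment, and 1 had an unadjusted p under 0.05. Of the 71, 5 were S96-like in all 43 segregants (HO and 4 mitochondrial genes) and could not differ, which leaves 66. The gene with the smallest p was COS7, a subtelomeric gene on chromosome IV, which was S96-like in 13 of 14 high-score and 6 of 14 low-score segregants (Fisher's exact p = 0.0128, adjusted 0.642). UIP3, KTD1, DFP2, YAR030C and PRM9, neighbours on chromosome I, were S96-like in 11 of 14 high-score and 5 of 14 low-score segregants (Fisher's exact p = 0.0542, adjusted 0.642). These neighbours are inherited together, so they count as 1 locus and not as 5 findings. ARN2 on chromosome VIII was S96-like in 9 of 14 high-score and 4 of 14 low-score segregants (Fisher's exact p = 0.128, adjusted 1).

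The called genes were not gathered on 1 chromosome. Higher genes lay on all 16 nuclear chromosomes, with shares between 1.78% of tested genes on chromosome III and 5.57% on chromosome XII. Other genes known to differ between yeast strains did not pass: FLO8 and FLO11 of invasive growth differed by 0.10 and -0.23, the heme regulator HAP1 by 0.07 and MKT1 by 0.08, with adjusted p between 0.608 and 0.926. FLO11 ranged between -3.93 and 2.43 in high-score and between -4.01 and 2.65 in low-score segregants, so both groups held segregants at both ends.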

How the data were processed

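Total RNA, labelled with Cy3, was hybridised to 1-colour Agilent arrays, 1 sample per array. Agilent Feature Extraction subtracted background from the deposited spot intensity and detrended it in space; per the file headers its version was 10.5.1.1 and the array design 016322, whereas version 9.1 stands in the submitters' processing notes. The raw intensity of spot and local background, per the file headers, was used for 1 alternative. Spot flags and control type came from the same deposited files. All 626304 cells of the authors' series matrix equalled the scanner intensity, of 626304 compared.

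From 13048 spots per array, 536 controls were left out, and log2 intensity minus the array's log2 75th percentile was averaged over the 2 spots of each of 6256 genes. Of 6256 names 5756 matched assembly R64, used for names only. The groups were 14 arrays each. A gene entered if at least 14 of the 28 arrays showed it well above background (25 removed). Tests were limma 3.58.1 in R 4.3.3 (lmFit, eBayes, two-sided, Benjamini-Hochberg over all tested genes) and Fisher's exact test. Permutation tests of array measures are not given, since the scaling percentile enters the score and the slides differ between the groups. Slides were read from the file headers and number 6. The number of arrays limits the precision. Named genes were the 12 largest differences each way passing both fits, up to 4 per list past the threshold, the pheromone, mating-type and parental-marker lists, and the 5 smallest p where fewer than 3 passed. Members, lists and this rule were chosen with earlier results of these data known. Python 3.11.15, numpy 2.4.6, scipy 1.17.1, pandas 2.3.3 and matplotlib 3.10.9 were used.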

Additional observations from a re-analysis of the deposited data

How the results depend on the processing

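The count of genes past the threshold was 259 (247 higher, 12 lower) in the setting of the report. Quantile normalization gave 0 calls in all, 0 higher and 0 lower (limma; 704 genes at an unadjusted p under 0.05), and cut the difference of the mean score to 0.0746. Several alternatives were chosen after seeing the data. Among these, quantile normalization with slide as a block (152 at unadjusted p under 0.05), score and levels both by quantile normalization (1073), the score minus the mean of the brightest 10% (1300), and that with slide as a block (814) also gave 0. The score as a continuous term gave 617 calls (515 higher, 102 lower), and with slide as a block 23 lower. Slides with both groups gave 149 (148 higher, 1 lower). Lower calls numbered 1 with slide as a block, 7 with arrays ranked within slides, 23 with that and slide as a block, 7 with median scaling, 7 without SEG14 and 5 with scan day as a block. The other alternatives kept the counts within 1.5 times. Without SEG14 248 were higher, and without SEG9 and SEG42 237 were higher and 17 lower; without SEG41, also chosen after seeing the data, 245 were higher and 9 lower. No paired analysis was possible because the high- and low-score segregants are different strains that share no replicate number. Leaving out single segregants other than these was not run.

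Signs turned for some named genes. With quantile normalization CIS3 was at -0.130, BGL2 at -0.068, HOR7 at -0.0363 and HSC82 at -0.010. With quantile normalization and slide as a block CIS3 was at -0.117, BGL2 at -0.0106, HOR7 at -0.0567, HSC82 at -0.0203, AGA2 at -0.0168, SSA2 at -0.00566 and ATP1 at -0.00205. With score and levels by quantile normalization CIS3 was at -0.0873, BGL2 at -0.0704, HSC82 at -0.0203, AGA2 at -0.0151, ASG7 at -0.0175, TDH3 at -0.00675 and TEF2 at -0.049. With the score minus the brightest 10% and slide as a block MFA1 was at -0.110 and MFA2 at -0.0952. The cause was not tested. Marker genes gave 0 differences past the threshold under each alternative run.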
